A study of Mus musculus with 33 samples.

Results

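En1, Foxp1 and Esrrg encode 3 transcription factors that are known from the trapezoid body's medial nucleus (MNTB), a group of inhibitory neurons in the auditory brainstem. The genes were taken by name. Each was measured by the probe set whose only gene symbol in the platform annotation was that of the gene, and each had exactly 1 such probe set. They make up 3 of the 14857 genes named on the arrays and 3 of the 16686 probe sets measured.

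All mice were untreated wild-type animals of the FVB strain (the strain field of the labels reads FVN), and each array held the RNA of a single mouse. MNTB tissue had been cut from live brain slices with a needle, which enriches for the nucleus without isolating a cell type. The 33 arrays covered 7 ages in days after birth: 5 mice each at P0, P1, P2 and P3, 4 mice at P4, 5 mice at P6 and 4 mice at P14. Mice carried litter numbers 1 to 5, and litter 4 had no mouse at P4 or P14.

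En1 (Engrailed 1) is a homeodomain protein that marks the embryonic hindbrain lineage from which MNTB neurons arise in mice, and it can repress transcription with Groucho (Tle) corepressors and bind DNA beside Pbx proteins. Foxp1 is a forkhead protein that acts mostly as a repressor, works as a dimer and helps to set the identity of several neuron types, among them spinal motor neurons. Esrrg, the estrogen-related receptor gamma, is a nuclear receptor that needs no known natural hormone, is driven by coactivators such as Ppargc1a and is known for switching on genes of mitochondrial energy metabolism.

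Values are log2 intensities, so a difference of 1 is a doubling of the signal. A change was called where limma's moderated test, fitted to all 33 arrays, gave an adjusted p under 0.05 after Benjamini-Hochberg adjustment over all 16686 probe sets. The number of arrays limits the precision. The median log2 value of an array lay between 4.83 and 5.12, and arrays of the same age correlated with each other at 0.967 to 0.990. The 3 arrays with the lowest limma quality weights were those of litter 4 at P6, P2 and P1 (0.271, 0.432 and 0.45, against weights of up to 2.15), so results on these ages are also given without them where they moved. The tissue carried markers of MNTB principal neurons: Slc6a5, the glycine transporter of inhibitory neurons, averaged 11.23 ± 0.12 at P14 (SD, n = 4) and 9.81 ± 0.14 at P0 (SD, n = 5), and 0 of 8 measured principal neuron markers at P14 and 3 of 8 at P0 lay under the median of the array. The 3 genes were not measured in sorted cells. All 9 measured markers of motor and monoaminergic neurons lay under the array median at P0, P6 and P14.

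The promoters of the 3 genes are shown because each gene's signal changed with age. RefSeq's promoter table (GRCm38.p6) matched 3 of 3 genes, with 1 window for En1, 3 for Foxp1 and 4 for Esrrg, each 300 bases long. En1's window lies at chr1:120602237-120602536 on the plus strand, the Foxp1 window shown at chr6:99266466-99266765 on the minus strand, and the Esrrg window shown, the most upstream of its gene, at chr1:187608756-187609055 on the plus strand. Each window spans an annotated transcription start of its gene and is written 5′ to 3′ on the gene's strand, with matches to the motifs searched in capitals.
En1: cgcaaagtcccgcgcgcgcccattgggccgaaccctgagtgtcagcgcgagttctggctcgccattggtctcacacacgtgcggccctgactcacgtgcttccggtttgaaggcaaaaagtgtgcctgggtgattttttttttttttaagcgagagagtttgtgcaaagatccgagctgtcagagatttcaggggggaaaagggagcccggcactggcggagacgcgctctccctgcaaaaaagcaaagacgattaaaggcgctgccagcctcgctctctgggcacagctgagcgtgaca
Foxp1: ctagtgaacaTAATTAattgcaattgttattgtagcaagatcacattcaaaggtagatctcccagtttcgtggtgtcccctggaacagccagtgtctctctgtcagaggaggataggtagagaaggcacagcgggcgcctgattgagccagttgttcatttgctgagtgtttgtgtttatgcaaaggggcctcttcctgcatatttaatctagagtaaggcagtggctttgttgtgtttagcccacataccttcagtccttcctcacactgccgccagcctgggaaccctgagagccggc
Esrrg: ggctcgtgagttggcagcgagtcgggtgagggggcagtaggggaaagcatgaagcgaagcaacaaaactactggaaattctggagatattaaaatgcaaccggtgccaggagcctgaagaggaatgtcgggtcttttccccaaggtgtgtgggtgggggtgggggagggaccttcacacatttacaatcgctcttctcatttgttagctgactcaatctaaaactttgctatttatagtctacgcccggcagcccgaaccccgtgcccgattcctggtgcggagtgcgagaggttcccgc
A motif for each protein's family was searched on both strands: TAATTA, a homeodomain core of the Engrailed type, GTAAACA, a forkhead core, and AAGGTCA, an extended half-site of nuclear receptors. The 8 windows held 1 match, the TAATTA in the Foxp1 window shown. Of all 32851 windows in the table, 5.29% held TAATTA, 3.65% held GTAAACA and 4.72% held AAGGTCA. A match describes the letters and not a bound site.

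All 3 genes differed across the 7 ages by limma's F test, as did 28.5% of all probe sets, with adjusted p of 0.000213 for En1, 1.81e-14 for Foxp1 and 0.000299 for Esrrg. En1 was lower by P6 than at P0 and then did not pass the test between P6 and P14. Foxp1 fell in both intervals. Esrrg did not pass the test between P0 and P6 and fell between P6 and P14. In tissue of mixed cells, fewer cells of a type and less RNA per cell cannot be told apart.

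**Figure D1:**
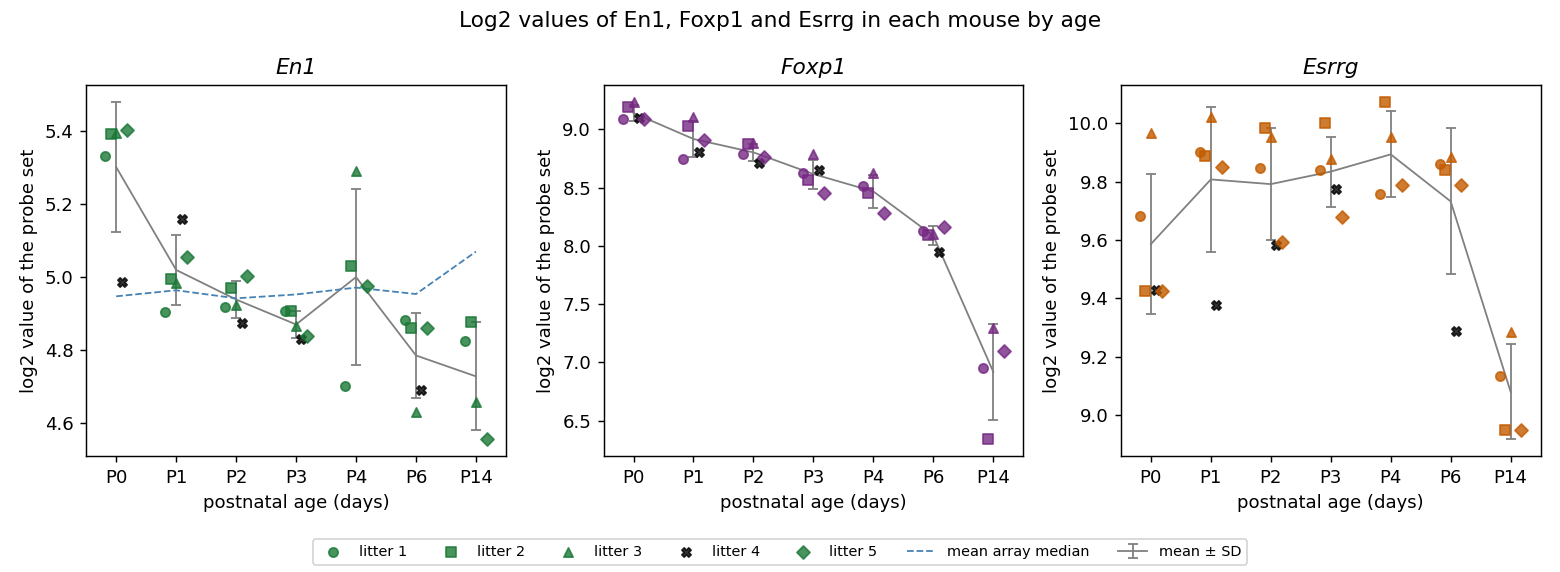
Log2 value (y axis) of En1, Foxp1 and Esrrg in each mouse at each age (x axis, ages evenly spaced and not to scale), with litters as symbols and litter 4 in black. Grey lines join the age means with SD, and the dashed line in the En1 panel is the mean array median. En1 is highest at P0 and sits near the array median, Foxp1 declines at each age to between 6.34 and 7.30 at P14, and Esrrg has age means of 9.59 to 9.89 until P6 and lies at 8.95 to 9.29 at P14.

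En1, the lineage marker, was dim on these arrays. Its log2 values were 5.33, 5.39, 5.40, 4.99 and 5.40 at P0, 4.88, 4.86, 4.63, 4.69 and 4.86 at P6, and 4.82, 4.88, 4.66 and 4.56 at P14. Every P6 and P14 mouse lay below every P0 mouse, while P14 and P6 mice overlapped. En1 exceeded the median of its array in 5 of 5 mice at P0, 2 of 5 at P1, 2 of 5 at P2, 0 of 5 at P3, 2 of 4 at P4, 0 of 5 at P6 and 0 of 4 at P14. Changes of dim probe sets are compressed on arrays, so no fold is given for En1, and at P6 and P14 the signal may be too dim to show a further fall.

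The age means of En1, from P0 on, were 5.30 ± 0.18, 5.02 ± 0.095, 4.94 ± 0.050, 4.87 ± 0.036, 5.00 ± 0.24, 4.78 ± 0.12 and 4.73 ± 0.15 (SD, n = 5, or 4 at P4 and P14). The P4 mice spread most, from 4.70 to 5.29. At P6 the mean was 0.52 lower on the log2 scale than at P0 (log2 difference -0.52, SE 0.09, limma adjusted p = 0.000103). The change between P14 and P6 was -0.06 (SE 0.096, adjusted p = 0.756 by limma, 95% confidence interval -0.25 to 0.14). The P14 minus P0 difference was -0.57 (limma adjusted p = 1.51e-05).

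Ranked by mean, the order of En1 was P0, P1, P4, P2, P3, P6 and P14, and no pair of neighbours in that order passed the test. En1 was called in 5 of the 21 pairs of ages, each time lower at the later age: P2, P3, P6 and P14 against P0, and P14 against P1. Of all probe sets, 0.779% were called lower at P2 than at P0, 2.39% at P3, 7.95% at P6 and 12.2% at P14, and 11.8% at P14 than at P1. P3 mice were 0.43 below P0 mice (log2 difference -0.43, limma adjusted p = 0.00279).

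Foxp1, the forkhead factor, lay above the array median in every mouse and had the largest measured change of the 3 between P14 and P0. Its log2 values were 9.09, 9.19, 9.24, 9.10 and 9.09 at P0, 8.13, 8.10, 8.10, 7.94 and 8.16 at P6, and 6.95, 6.34, 7.30 and 7.09 at P14. No P6 mouse reached the lowest P0 mouse, and no P14 mouse reached the lowest P6 mouse.

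The age means of Foxp1, from P0 on, were 9.14 ± 0.068, 8.92 ± 0.15, 8.80 ± 0.074, 8.62 ± 0.12, 8.47 ± 0.14, 8.09 ± 0.083 and 6.92 ± 0.41 (SD, n = 5, or 4 at P4 and P14). Each mean was lower than that of the age before, a course shared by 271 of the 16686 probe sets (1.62%). Between P6 and P0 the log2 difference was -1.05 (SE 0.11, limma adjusted p = 2.47e-08), a 2.08-fold lower signal at P6. Between P14 and P6 it was -1.17 (SE 0.12, limma adjusted p = 5.86e-09), a 2.25-fold lower signal at P14. Over the whole course the difference was -2.22 (SE 0.12, limma adjusted p = 1.17e-15), a 4.66-fold lower signal at P14 than at P0.

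The fall of Foxp1 was spread over both intervals: 47.4% of it lay between P0 and P6, at -0.18 log2 units per day, and 52.6% between P6 and P14, at -0.15 per day. The P14 mice also spread most, with litter 2 at 6.34. Without that mouse the difference between P14 and P6 was -0.97 (limma adjusted p = 3.36e-09). Foxp1 was called in 13 of the 21 pairs of ages, all lower at the later age. These were P3, P4, P6 and P14 against P0 (2.39%, 2.74%, 7.95% and 12.2% of all probe sets called lower), P4, P6 and P14 against P1 (0.671%, 4.96% and 11.8%), P6 and P14 against P2 (1.74% and 9.64%), P6 and P14 against P3 (0.455% and 8.4%), and P14 against P4 (7.23%) and P6 (5.14%). No step between neighbouring ages up to P6 passed the test; the largest of them, P6 against P4, was -0.38 (limma adjusted p = 0.266). P3 was already below P0 (log2 difference -0.52, limma adjusted p = 0.00338), P4 below P1 (-0.45, adjusted p = 0.0391 by limma) and P6 below P3 (-0.53, adjusted p = 0.00641 by limma).

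Esrrg, the nuclear receptor, also lay above the array median in every mouse. Its log2 values were 9.68, 9.43, 9.97, 9.43 and 9.43 at P0, 9.86, 9.84, 9.88, 9.29 and 9.79 at P6, and 9.14, 8.95, 9.29 and 8.95 at P14. The P14 mice lay below all P6 mice, although the highest P14 mouse and the litter 4 mouse at P6 were both at 9.29 when rounded. P6 and P0 mice overlapped.

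The age means of Esrrg, from P0 on, were 9.59 ± 0.24, 9.81 ± 0.25, 9.79 ± 0.19, 9.83 ± 0.12, 9.89 ± 0.15, 9.73 ± 0.25 and 9.08 ± 0.16 (SD, n = 5, or 4 at P4 and P14). P6 exceeded P0 by 0.15 (SE 0.13, limma adjusted p = 0.547), with a 95% confidence interval of -0.12 to 0.41. P14 was below P6 by a log2 difference of -0.65 (SE 0.14, limma adjusted p = 0.000533), a 1.57-fold lower signal. P14 was below P0 by a log2 difference of -0.51 (SE 0.14, limma adjusted p = 0.00374), a 1.42-fold lower signal. Esrrg was called in 6 of the 21 pairs of ages, namely P14 against each of the earlier ages, where 5.14% (P6) to 12.2% (P0) of all probe sets were called lower. No pair of ages up to P6 passed the test. Ranked by mean, the order was P4, P3, P1, P2, P6, P0 and P14, and only the last pair of neighbours, P14 and P0, passed it.

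The 3 genes were chosen with earlier results of these data known, so the counts below describe them and test no excess. Counted over the 3 genes, 2 of 3 were called lower at P6 than at P0, where 7.95% of all probe sets were. Between P14 and P6, 2 of 3 were called lower, against 5.14% of all probe sets, and between P14 and P0, 3 of 3, against 12.2%. None of the 3 was called higher in any of the 21 pairs. Over these pairs, 0.012% (P4 against P3) to 20.7% (P14 against P0) of all probe sets were called higher. Every P14 mouse lay below every P0 mouse for 3 of 3 genes, against 10.2% of all probe sets, every P14 mouse below every P6 mouse for 2 of 3, against 4.47%, and every P6 mouse below every P0 mouse for 2 of 3, against 5.57%. The share of higher calls depended on scaling, at 75.4% of all calls for P14 against P6 as deposited, 51.2% after quantile normalization and 57.8% with arrays centred on their medians. For P14 against P0 these shares were 62.9%, 47.1% and 47%. The calls of the 3 genes were the same under both scalings, with Foxp1 at -1.41 and Esrrg at -0.86 between P14 and P6 after quantile normalization.

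**Figure D2:**
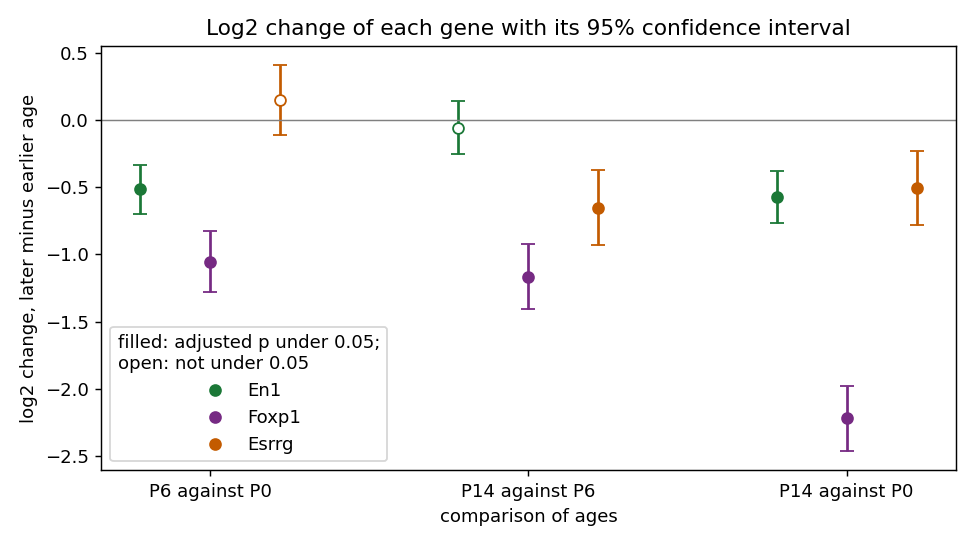
Log2 change (y axis, later minus earlier age) of En1, Foxp1 and Esrrg in the comparisons P6 against P0, P14 against P6 and P14 against P0 (x axis), with 95% confidence intervals from limma. Filled points passed an adjusted p of 0.05. Foxp1 is below 0 in every comparison, En1 is near 0 between P14 and P6, and Esrrg is near 0 between P6 and P0.

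Whether the measured changes differed was tested on the difference between a pair of genes within each mouse, with exact two-sided permutation tests over mice adjusted over 9 comparisons. The smallest p these designs allow is 0.00794 for 5 against 5 mice and 0.0159 for 4 against 5. Esrrg and Foxp1, both above the array median in every mouse, parted in each interval. Esrrg changed by 1.20 relative to Foxp1 between P6 and P0 (exact permutation p = 0.00794, adjusted 0.0204) and by 0.52 between P14 and P6 (exact permutation p = 0.0159, adjusted 0.0204). Over P0 to P14 the difference was 1.71 (exact permutation p = 0.0159, adjusted 0.0204). The mice of the ages compared did not overlap in any of these 3 comparisons.

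Differences from En1 are limited by its dim signal. Compression of En1's change alone can make another gene's change look different, so these values do not show that RNA amounts changed unequally, and the part of compression was not tested. Relative to En1, Foxp1 changed by -0.54 between P6 and P0 (exact permutation p = 0.00794, adjusted 0.0204) and by -1.11 between P14 and P6 (exact permutation p = 0.0159, adjusted 0.0204). Esrrg changed by 0.66 relative to En1 between P6 and P0 (exact permutation p = 0.00794, adjusted 0.0204). By P14 it had changed by -0.59 relative to En1 from P6 (exact permutation p = 0.0317, adjusted 0.0357), with overlap between mice. That call was lost without 7 of the 9 mice compared, taken in turn (P6 litters 1, 2, 3 and 5 and P14 litters 1, 2 and 5, adjusted p up to 0.0804), and fewer mice also raise the smallest p the test can give. Over P0 to P14, Esrrg and En1 differed in change by 0.07 (SE 0.16, exact permutation p = 0.667) and Foxp1 and En1 by -1.65 (exact permutation p = 0.0159, adjusted 0.0204).

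**Figure D3:**
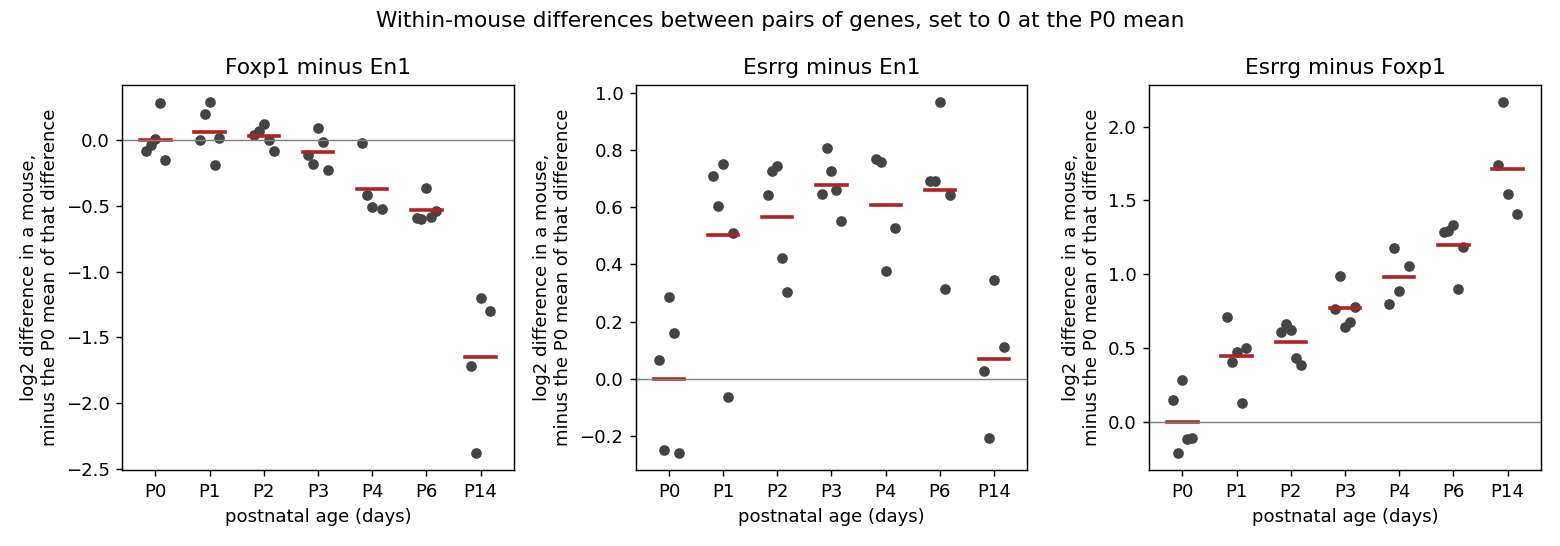
Log2 difference between a pair of genes in each mouse (y axis), set to 0 at the P0 mean of that difference, by age (x axis, ages evenly spaced). Points are mice and red lines are age means. Esrrg minus Foxp1 increases up to a mean of 1.71 at P14, while Esrrg minus En1 is above its P0 mean at P6 by 0.66 and returns to within 0.07 of it at P14.

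The 3 genes were compared with the genes whose values were most alike over the 33 arrays, among 1869 named genes (1868 for Foxp1). These candidates had passed the F test across ages (adjusted p under 0.05), and their age means spanned at least 1 log2 unit. They were thus chosen for changing with age in these same data, which favours high correlations. These correlations are descriptions over arrays that share age, and carry no test. The 5 genes most like Foxp1 were Jpt1 (Pearson r 0.978), Samd5 (0.964), Dclk1 (0.963), Lmo3 (0.962) and Fnbp1l (0.959); Dclk1 is a doublecortin-like kinase of growing neurons and Lmo3 a LIM-only cofactor. Jpt1 averaged 10.00 at P0, 8.29 at P6 and 6.50 at P14. Of 1868 candidates, 97 had an r above 0.9 with Foxp1, and none did with En1 or Esrrg. Without the P14 arrays, r with Foxp1 remained 0.925 for Jpt1 and 0.862 for Dclk1. With age means taken out, r with Foxp1 was lower, from 0.252 (Fnbp1l) to 0.622 (Jpt1) for the 5 genes.

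The genes most like En1 were Dbn1 (r 0.865), Arhgap33 (0.816), Prr36 (0.799), Rac3 (0.791) and Nav2 (0.791), of which Dbn1 encodes the actin-binding protein drebrin and Rac3 a small GTPase of the cytoskeleton. Dbn1 averaged 6.69 at P6 and 7.57 at P0. Those most like Esrrg were Sertm1 (r 0.893), Kcnd2 (0.885), Gabra5 (0.885), Ppp2r2b (0.880) and Slc35f1 (0.875), where Kcnd2 encodes an A-type potassium channel and Gabra5 a GABA-A receptor subunit. Kcnd2 averaged 7.06 at P14 and 8.39 at P6, and its r with Esrrg was 0.797 without the P14 arrays. At the other end of the range, Aldh1a1 had r -0.960 and Lpar1 -0.957 with Foxp1, Cst3 -0.777 with En1, and Fam78a -0.816 with Esrrg. With age means taken out, r was -0.085 for Aldh1a1, -0.172 for Lpar1, -0.241 for Cst3 and -0.66 for Fam78a. Taken in that way, r was 0.426 to 0.709 for the genes most like En1 and 0.643 to 0.741 for those most like Esrrg.

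Among themselves, Esrrg and Foxp1 had r 0.64 over 33 arrays, -0.041 without the P14 arrays and 0.459 after the age means were taken out. Foxp1 and En1 had r 0.609 over all arrays and -0.104 with age means taken out, and Esrrg and En1 had r 0.208. The positive value of Esrrg and Foxp1 within ages is shown by litter. Litter 3 lay above the age mean in 7 of 7 mice for Foxp1 (mean deviation 0.16) and in 7 of 7 for Esrrg (0.17). Litter 4 lay below it in 4 of 5 mice for Foxp1 (-0.07) and 5 of 5 for Esrrg (-0.26), and in 4 of 5 for En1 (-0.07). The part of litter and of array quality in these deviations was not tested. Without litter 4, P6 exceeded P0 by 0.22 for Esrrg (limma adjusted p = 0.253).

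**Figure D4:**
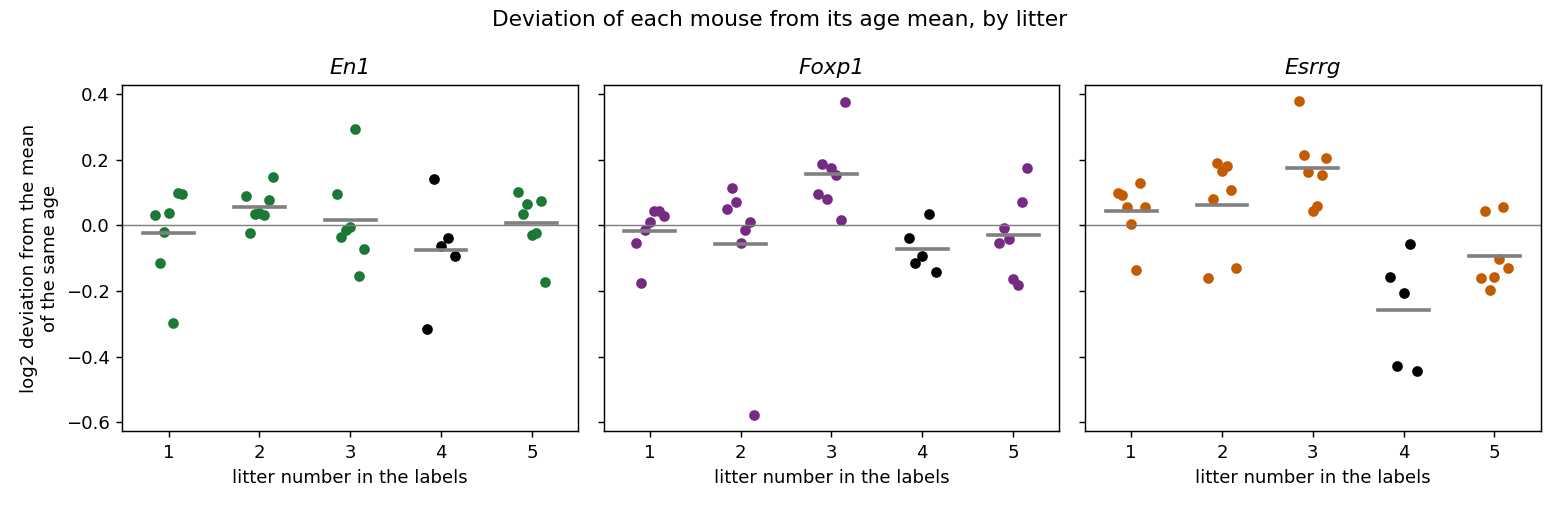
Log2 deviation of each mouse from the mean of its age (y axis) by litter number (x axis) for En1, Foxp1 and Esrrg. Points are mice and grey lines are litter means, with litter 4 in black. All 7 mice of litter 3 are above 0 for Foxp1 and Esrrg, and all 5 mice of litter 4 are below 0 for Esrrg.

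Of 6 close relatives of the 3 genes, 4 were measured by a probe set with a single symbol. Foxp2, Foxp4 and Esrra lay under the array median on 33 of 33 arrays, and Esrrb lay above it on 33 of 33. None passed the F test (adjusted p from 0.242 to 0.901). Esrrb averaged 5.98 ± 0.25 at P14 and 6.48 ± 0.32 at P0 (SD, n = 4 and 5), a difference of -0.49 (limma adjusted p = 0.0313) that was not called with only these ages in the fit (adjusted p = 0.0635), nor without the P0 mouse of litter 2, 3 or 4 or the P14 mouse of litter 2 or 5 (0.0608 to 0.106). Esrra averaged 4.03 ± 0.10 at P14 and 3.81 ± 0.093 at P6, a difference of 0.22 (limma adjusted p = 0.0468) that was not called with arrays centred on their medians (adjusted p = 0.451), with only these ages in the fit (0.143) or without the P14 mouse of litter 5 (0.158), and was kept in 13 of 33 fits that left out a single mouse. En2 and Foxp3 were on probe sets with several symbols and are not reported.

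Cofactors of the 3 proteins came next, as a list of 24 genes of which 20 were measured: Tle corepressors, Pbx and Meis homeodomain partners, histone deacetylase complexes and nuclear receptor coregulators. Between P6 and P0, 7 fell, 0 rose and 13 did not pass the test (7.95% of all probe sets were called lower and 6.42% higher), with a median log2 change of -0.25 against -0.0067 over all probe sets. Those that changed most were Meis1 (-0.98), Tle4 (-0.96), Meis2 (-0.85) and Tle2 (-0.58), with limma adjusted p of 0.000167, 0.000137, 7.1e-07 and 0.000111. Between P14 and P0, 7 fell and 2 rose (12.2% and 20.7% of all probe sets; 4 rose without the P0 mouse of litter 3), and the same 4 genes changed most, with Meis2 at -1.80 (limma adjusted p = 5.56e-14) and Tle2 at -1.02 (limma adjusted p = 5.53e-09). Meis1 and Tle4 were at -1.21 and -1.10.

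At P14 against P6, 5 of the 20 cofactors rose and 4 fell, where 15.7% of all probe sets were called higher and 5.14% lower, with a median change of -0.022 against 0.054 over all probe sets. Meis2 fell again (log2 difference -0.96, limma adjusted p = 1.19e-07) and Pbx3 fell (-0.72, limma adjusted p = 0.00866, 0.0539 with only these ages in the fit). Pbx2 rose by 0.91 (limma adjusted p = 0.000296) and Tle1 by 0.53 (limma adjusted p = 0.0113). After quantile normalization 2 rose and 9 fell, where 1740 of all 16686 probe sets were called lower and 51.2% of all calls were higher. Also 2 rose with centred arrays, with only these ages in the fit and without the P14 mouse of litter 1, and 3 rose with dim probe sets, litter 4, the 3 arrays of lowest weight, or the P14 mouse of litter 3 left out.

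Known targets of estrogen-related receptors, which encode mostly mitochondrial enzymes and their regulators, were followed as a list. Of 20 listed, 15 were measured. Between P14 and P6, 7 rose, 0 fell and 8 did not pass the test, with a median log2 change of 0.31 against 0.054 over all probe sets, where 15.7% of probe sets were called higher. Pdk4, a kinase that restrains pyruvate oxidation, rose by 1.35 (limma adjusted p = 9.02e-07), Maob, which oxidises monoamines, by 0.99 (limma adjusted p = 0.000105) and Sdha, a subunit of respiratory complex II, by 0.63 (limma adjusted p = 0.000148). Idh3b, a subunit of the citric acid cycle enzyme isocitrate dehydrogenase, rose by 0.40 (limma adjusted p = 0.00432, 0.201 after quantile normalization). Pdk4 and Maob were dim before P14. Pdk4 averaged 4.08 at P0 and 4.16 at P6, and Maob 4.075 and 4.68. The mean array median was 4.95 at both ages. The list holds Esrra, whose own call was lost under centring. The count was 4 after quantile normalization, with centred arrays, with only these ages in the fit, without the P6 mice of litters 3 or 4 in turn, and without the P14 mouse of litter 3, and 3 with dim probe sets left out. The calls over all probe sets moved with scaling too. Of these calls, 75.4% were higher as deposited, 51.2% after quantile normalization and 57.8% with centred arrays.

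Between P6 and P0, where 6.42% of all probe sets were called higher, 2 of the 15 targets rose and 0 fell: Maob by 0.61 (limma adjusted p = 0.013) and Idh3b by 0.38 (limma adjusted p = 0.00506, 0.0697 with only these ages in the fit). The count was 4 or 5 after quantile normalization, with array weights, without the 3 arrays of lowest weight and without the P0 mouse of litter 3, and 1 with only these ages in the fit or dim probe sets left out. Between P14 and P0, 9 rose and 0 fell (20.7% of all probe sets were called higher), with a median of 0.47 against 0.032 over all probe sets. Maob (1.60), Pdk4 (1.43), Ldhb (1.28) and Sdha (0.89) changed most, and the call of Ldhb (limma adjusted p = 0.0427) was lost without the P0 mouse of litter 2, 4 or 5 or the P14 mouse of litter 1, 3 or 5 (adjusted p from 0.0688 to 0.141). The count was 5 without the P0 mouse of litter 5 or the P14 mouse of litter 3. In the RefSeq promoter windows, AAGGTCA stood in 3 of 16 listed targets with an entry (18.8%), namely Acadm, Perm1 and Sdhd, against 5.38% of 27025 genes. Acadm and Sdhd were measured and passed the test in none of the 3 comparisons.

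**Figure D5:**
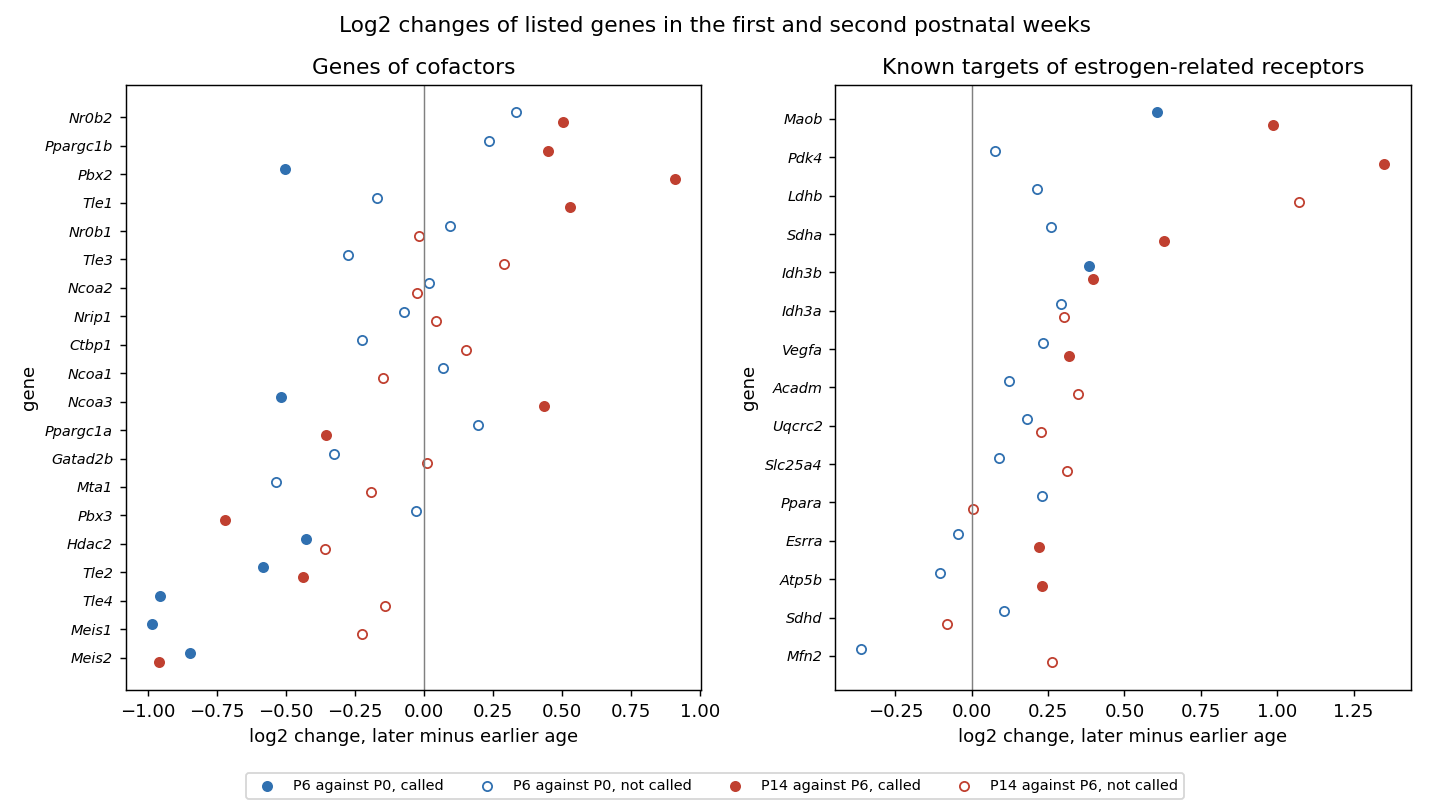
Log2 change (x axis, later minus earlier age) of each measured cofactor (left, 20 genes) and each measured target of estrogen-related receptors (right, 15 genes), with genes down the y axis in the order of their change between P14 and P0. Blue points compare P6 with P0, red points P14 with P6, and filled points passed limma's adjusted p of 0.05. All filled points of the targets are above 0, while those of the cofactors lie on both sides between P14 and P6.

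Of 22 other transcription factors of the developing brainstem, 19 were measured, and 16 of them lay under the array median at P0. Between P6 and P0, 1 of 19 fell and 0 rose, where 7.95% of all probe sets were called lower: Lhx5, a LIM-homeodomain factor, by a log2 difference of -0.86 (limma adjusted p = 7.15e-05); 0 fell with dim probe sets left out, and 2 or 3 fell after quantile normalization, with array weights and without the P0 mouse of litter 1 or 5 or the P3 mouse of litter 4. Between P14 and P6, 3 rose and 1 fell (15.7% and 5.14% of all probe sets). Egr2, a zinc finger factor of hindbrain segments and of myelinating Schwann cells, rose by 0.84 (limma adjusted p = 0.00109) and Onecut2 by 0.49 (limma adjusted p = 0.00147). Hoxa2 rose by 0.91 (limma adjusted p = 0.0203) and Nfib fell (log2 difference -0.72, limma adjusted p = 0.0427). The call of Hoxa2 was lost without the litter 4 arrays or without the litter 3 mouse of P6 or of P14. That of Nfib was lost without the P6 mouse of litter 1, 2, 3 or 5 or the P14 mouse of litter 2 or 5, and with only these ages in the fit (adjusted p = 0.174), and its difference was -0.39 without the P14 mouse of litter 2. The count that fell ranged from 0 to 2 over the alternatives and was 1 in only 4 of 9 settings other than leaving out a mouse. Between P14 and P0, 2 rose and 3 fell (20.7% and 12.2% of all probe sets), with Nfib at -1.25, Sox2 at -0.73 and Lhx5 at -0.58 lower and Egr2 higher by 0.99 (limma adjusted p from 8.41e-05 to 0.004; Lhx5 0.0529 with only these ages in the fit). With dim probe sets left out, 0 rose.

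Markers of the neurons that these factors are known from were counted in the same way, against shares of all probe sets called higher of 6.42% for P6 against P0, 15.7% for P14 against P6 and 20.7% for P14 against P0, and called lower of 7.95%, 5.14% and 12.2%. Of 8 measured principal neuron markers, 5 rose and 0 fell between P6 and P0, and 7 rose and 1 fell both between P14 and P6 and between P14 and P0. Between P6 and P0 Calb1 rose by 5.24 and Pvalb by 4.86, both calcium-binding proteins, and between P14 and P6 the glycine receptor subunit gene Glra1 rose by 3.60 (limma adjusted p = 1.22e-11). The exception was Kcnc1, a fast potassium channel gene, at -1.16 between P14 and P6 (limma adjusted p = 3.68e-05). Their mean level per array was 5.82 to 6.16 at P0, 7.26 to 7.84 at P6 and 8.31 to 8.72 at P14.

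Of 9 measured pan-neuronal markers, 4 rose and 4 fell between P14 and P6 (15.7% and 5.14% of all probe sets), and 3 rose (1 with only these ages in the fit) and 4 fell between P6 and P0 (6.42% and 7.95%). Their mean level per array was 9.57 to 9.92 at P0, 9.48 to 9.76 at P6 and 9.50 to 9.72 at P14. Rbfox3, which encodes the neuronal nuclear protein NeuN, was at -0.96 between P6 and P0 and -1.02 between P14 and P6, and Stmn2, of growing axons, at -0.52 and -0.95. Nefl, a neurofilament gene, rose by 0.66 and 0.67.

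Markers of other cells were read beside the changes of the 3 genes, against 6.42% of all probe sets called higher between P6 and P0 and 15.7% between P14 and P6. Of 9 measured oligodendrocyte markers, 8 rose between P6 and P0 and 8 between P14 and P6, none fell, and their mean level per array was 4.62 to 4.82 at P0, 7.26 to 7.74 at P6 and 9.44 to 9.53 at P14. Between P6 and P0, where En1 and Foxp1 fell, 6 of 10 microglia markers, 6 of 9 astrocyte markers and 3 of 10 endothelial and pericyte markers rose. At P14 against P6, 9 of 10 microglia markers, 8 of 10 endothelial and pericyte markers and 6 of 9 astrocyte markers rose, with 1 astrocyte marker lower. Of 8 measured glutamatergic neuron markers, the number under the array median was 6 at P0 and 8 at both P6 and P14. Of the 8, 2 fell and 0 rose between P6 and P0 (7.95% of all probe sets were called lower). These were Slc17a8, a vesicular glutamate transporter gene that is also known from inhibitory MNTB neurons of young rats, and Neurod6, a transcription factor gene of excitatory neurons. Slc17a8 averaged 4.25 ± 0.11 at P6 and 8.04 ± 0.41 at P0 (SD, n = 5 each), a log2 difference of -3.79 (limma adjusted p = 4.4e-14), and Neurod6 4.10 ± 0.15 at P6 and 5.44 ± 0.90 at P0 (SD, n = 5 each), a difference of -1.34 (limma adjusted p = 0.000597). The part of cell composition in the lower En1, Foxp1 and Esrrg values was not tested.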

How the data were processed

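RNA of needle-dissected MNTB tissue from 33 single mice was amplified (WT-Ovation Pico) and biotin-labelled, per the labels' protocols. The deposited values are log2 intensities of 16686 probe sets; per the submitters' processing notes, Partek 6.3 and RMA were used, and mm9 was the build. RMA, whose settings were not given in the sources, in general removes background, brings the arrays to a common scale and combines the probes of a set. The deposited arrays still differed in scale. Their medians averaged 5.07 at P14 (5.03 to 5.11), against means of 4.94 to 4.97 at the earlier ages. RMA takes most genes to be stable, so a change that many genes share depends on scaling.

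The platform annotation paired 14993 probe sets with 1 symbol, 1019 with several and 674 with none, and 14939 of the probe sets with 1 symbol matched RefSeq's GRCm38.p6 table by Entrez number and took the symbol given there. Only probe sets with 1 symbol were named, with the brightest standing for a gene.

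Limma 3.58.1 in R 4.3.3 fitted a mean per age to the deposited log2 values of all arrays, with 21 contrasts, an F test and Benjamini-Hochberg adjustment over all probe sets. The fit was tested on simulated data. No dim probe sets were left out. SE is limma's moderated standard error. P-values measure the spread between mice of an age. The 3 genes and the lists were chosen with earlier results of these data known. From each list the text names up to 4 called genes per comparison with the largest changes; the 4 relatives, genes most or least alike over arrays, and promoter matches are named too.

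The titles number litters but do not say that a number is the same litter at each age. Over all probe sets, 94 pairs of arrays with the same number had a mean correlation of 0.092 in their deviations from age means (-0.32 to 0.65), and 372 other pairs -0.022. Of the 33 arrays, 18 correlated best with their own litter number. Arrays of the same number thus shared some deviation from the age means, and its source was not tested. The main fit held no term for litter number, and the block on litter number was run as an alternative. Other alternatives were quantile normalization, centring on array medians, array weights, leaving out 3 arrays, litter 4, dim probe sets or each mouse in turn, and fits on only the ages compared.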

Additional observations from a re-analysis of the deposited data

Results flagged for a closer look

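In 4 of 21 groups (3 genes at 7 ages), a single mouse lay farther from the others than Dixon's 95% criterion allows, and all 4 were litter 4 mice. Chance passes this criterion in about 1 in 20 groups. The 21 groups are not independent, because the 3 genes were read on the same arrays. The flags of Foxp1 and Esrrg at P6 came from the same array. En1 of the litter 4 mouse at P0 was 4.99, with the others at 5.33 to 5.40 (gap over range 0.832). Foxp1 of the litter 4 mouse at P6 was 7.94, with the others at 8.10 to 8.16 (0.713). That array had the lowest median of all arrays (4.83). Measured from the array median, its Foxp1 was at 3.12, within the 3.10 to 3.17 of the others. Its Esrrg stayed lowest on that measure, at 4.46 with the others at 4.80 to 4.93. Esrrg of the litter 4 mouse at P1 was 9.38, with the others at 9.85 to 10.02 (0.736). Esrrg of the litter 4 mouse at P6 was 9.29, with the others at 9.79 to 9.88 (0.84). The critical value for 5 samples is 0.71. The P6 and P1 arrays of litter 4 were among the 3 with the lowest quality weights. The P0 array of litter 4 was not. Without all litter 4 arrays, no call of En1, Foxp1 or Esrrg in the comparisons of P6 with P0, P14 with P6 and P14 with P0 changed.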

How the results depend on the processing

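The calls of En1, Foxp1 and Esrrg in the F test and in the comparisons of P6 with P0, P14 with P6 and P14 with P0 were the same under every alternative that gave a value. With single mice left out included, Foxp1 ranged over -1.07 to -1.02 for P6 against P0 and -1.41 to -0.97 for P14 against P6, Esrrg over -0.86 to -0.61 for P14 against P6, and En1 over -0.595 to -0.477 for P6 against P0. The block on litter number changed no call of the 3 genes (Esrrg P14 against P6 -0.72, limma adjusted p = 2.38e-06); among the relatives it called Esrra for P14 against P0 (0.19, limma adjusted p = 0.0479). En1 did not pass the filter on dim probe sets (mean 4.95 against 4.98), so it has no value there, and each gene had 1 probe set, so none had a second to try.

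The uncalled change of En1 between P14 and P6 ranged from -0.106 to 0.000229 when mice were left out in turn. The change of Esrrg relative to En1 ranged from -0.687 to -0.502 for P14 against P6, losing its call without 7 of the 9 mice compared, and from -0.0246 to 0.16 for P14 against P0, which was -0.0524 after quantile normalization. Both relatives that changed sign were uncalled: Foxp4, P6 against P0, ranged from -0.0761 to 0.0155 (0.00585 and 0.0155 without the P0 mice of litters 1 and 4), and Foxp2, P14 against P6, from -0.0851 to 0.00118 (0.00118 and 0.000538 without the litter 1 mouse of P6 or of P14). Probe sets called lower at P14 than at P6 numbered 858 as deposited, 1740 after quantile normalization and 1441 with centred arrays. Those lower at P14 than at P0 numbered 2042, 3162 and 3112. Those lower at P6 than at P0 numbered 1327, and 859 with only these ages in the fit. The cause was not tested. Dim signal limits En1, 3 of the relatives and those listed genes that lay under the array median. At P0 these were 16 of the 19 brainstem transcription factors and 4 of the 15 receptor targets. The 4 or 5 mice per age limit all results. Leaving out litter 4 was chosen after seeing the data.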

Other observations

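Coactivators of Esrrg were not among the genes with the largest changes and were picked after their values were seen. Ppargc1a, which drives mitochondrial gene expression with estrogen-related receptors, averaged 10.90 ± 0.18 at P14 and 11.25 ± 0.094 at P6 (SD, n = 4 and 5), a log2 difference of -0.35 (limma adjusted p = 0.00449). Ppargc1b, its relative, averaged 5.69 ± 0.23 at P14 and 5.24 ± 0.25 at P6 (SD, n = 4 and 5), a difference of 0.45 (limma adjusted p = 0.00919). P14 and P6 mice overlapped for both genes. Against P0, P14 did not pass the test for Ppargc1a (-0.16, limma adjusted p = 0.206). Ppargc1b was higher at P14 than at P0 (0.69, limma adjusted p = 5.74e-05). Of the listed Ncoa coactivators, Ncoa3 rose between P14 and P6 (0.44, limma adjusted p = 0.0203). Ncoa1 (-0.15, limma adjusted p = 0.509) and Ncoa2 (-0.03, limma adjusted p = 0.941) did not pass the test there.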
